A study of Xenopus laevis with 9 samples.

Results

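Canonical Wnt signalling was followed in animal pole explants of Xenopus laevis through the genes that carry the signal into the nucleus and the genes that feed back on it. The genes were chosen by name: every entry of the count tables whose symbol, once the ending .L or .S was removed, was ctnnb1, tcf7, tcf7l1, tcf7l2, lef1, axin2, nkd1, notum, znrf3 or rnf43. This gave 19 entries of 10 symbols, of 51061 entries in each table. X. laevis is allotetraploid, and .L and .S mark the copies of a gene (homeologs) on its long and short subgenomes. The symbols ctnnb1, tcf7l1, lef1, nkd1, notum, znrf3 and rnf43 had an L and an S entry, tcf7 had only an S entry and tcf7l2 only an L entry. The symbol axin2 had an L entry and 2 entries named axin2.S, which are told apart by their identifiers, gene10843 and gene8337. How the reads of such like-named entries were divided is not given in the sources used here, so the values of the smaller entry, gene8337, are uncertain.

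In canonical Wnt signalling a Wnt ligand binds a Frizzled receptor with its Lrp5/6 co-receptor and stops the complex of Axin, Apc, Gsk3 and casein kinase from marking β-catenin for degradation. The β-catenin that accumulates enters the nucleus and binds Tcf and Lef proteins on DNA, which switch from repression to activation. Among the genes then transcribed are inhibitors of the pathway itself, such as axin2, nkd1, notum, znrf3 and rnf43. In the frog gastrula ectoderm, Wnt signals together with reduced BMP signals mark the neural plate border, the strip from which neural crest and placodes arise.

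RNA was sequenced from 9 libraries in 3 groups of 3. The first group was St11.5 NPB, explants at stage 11.5 that the labels describe as wild type in genotype and as having received Wnt8a and Chordin mRNA, an agonist of the Wnt pathway and an antagonist of BMP. The second was St9 soxb1 morphant, stage 9 explants of embryos given soxb1 morpholinos, which in the methods of the study are translation-blocking oligonucleotides against sox2 and sox3. The third was St9 wild type, stage 9 explants without these treatments, the blastula state that both other groups are set against. None of the 9 libraries came from explants with a control morpholino or from stage 11.5 explants without the injected mRNA, so stage and treatment cannot be told apart in the NPB comparison. The methods also describe induction of a border state with a BMP inhibitor and a Gsk3 inhibitor; the labelled treatment was taken as given here. Each library held RNA from several pooled explants, so fewer cells of a type and less RNA per cell cannot be told apart.

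The libraries held between 25796466 and 48839143 counts, and 3 counts corresponded to between 0.0614 and 0.116 CPM (counts scaled to the same total in every library). The 13 entries of a list of neural plate border markers (pax3, zic1, msx1, msx2, tfap2a, prdm1 and klf17) summed to between 1642 and 2708 CPM in NPB libraries, against 323 to 379 CPM in wild-type libraries. The 10 entries of the blastula animal pole list (pou5f3.3, foxi1, foxi2, ventx2.1 and ventx2.2) summed to between 284 and 543 CPM in NPB libraries, against 2069 to 2396 CPM in wild-type libraries. In it pou5f3.3.L had 5.45, 13.8 and 27.5 CPM in NPB libraries, against 903, 960 and 1050 CPM in wild-type libraries. ventx2.2.L went the other way, with 141, 60.4 and 125 CPM, against 21.4, 25.6 and 20.6 CPM. Of the 9 tested entries of the list 2 were higher and 4 lower by edgeR, with a median log2 fold change of 0.47. Of all genes tested in that fit 26.9% were higher and 26.7% lower. Other cell type lists also held entries called by edgeR, beside the same shares of all genes. Of the neural list 6 of 9 tested entries were higher and of the epidermis list 4 of 7, with 0 lower. Their median log2 fold changes were 2.28 and 2.50. Of the 8 endoderm entries 4 were tested and all were lower, with a median of -3.39. These 4 had enough counts for the test only through the wild-type libraries, so they could hardly have been called higher. Among them sox17a.L had 0, 0.133 and 0.102 CPM in NPB libraries, against 3.22, 2.24 and 3.67 CPM in wild-type libraries. The epidermis entry trim29.L had 145, 83.3 and 80.6 CPM in NPB libraries, against 1.12, 1.45 and 4.09 CPM in wild-type libraries. By library totals grhl1.L of the same list went the other way, with 110, 43.4 and 34 CPM, against 129, 101 and 104 CPM. The whole epidermis list summed to 479.2, 215.5 and 187.6 CPM in NPB libraries, against 159.4 to 218.8 CPM in wild-type libraries. The whole neural list summed to 432.3, 652.6 and 596.6 CPM in NPB libraries, against 582.5 to 961.1 CPM in wild-type libraries. In it sox3.L had 20.9, 79.8 and 87.7 CPM, against 186, 174 and 268 CPM. With replicate number as a blocking factor 6 neural entries were higher and 1 lower, where 24.2% and 23.5% of all genes were. otx2.L and otx2.S passed the count filter only through their NPB counts, so they could hardly have been called lower. The part of these transcripts in the members' levels was not tested. A translation-blocking morpholino need not lower its target transcript, so RNA levels do not check the knockdown: sox3.S had 665, 631 and 901 CPM in morphant libraries, against 440, 376 and 659 CPM in wild-type libraries. The NPB libraries were not alike in mesoderm transcripts. The 11 entries of the mesoderm list summed to 34.6 CPM in NPB replicate 3, 1.76 and 4.24 CPM in NPB replicates 1 and 2, and 113 to 218 CPM in wild-type libraries, where most of it was vegt. The entry tbxt.S alone had 16.1 CPM in replicate 3, against 0.352 and 0.601 CPM in the others. Of these entries msgn1.L and tbx6.S were at 0 in all NPB libraries.

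Levels of different genes were ranked only as TPM (an abundance corrected for transcript length), which was deposited for the NPB libraries alone. Words such as abundant, low or mostly, used for other libraries or for list sums, rest on CPM, which is not corrected for length. With L and S entries summed, ctnnb1 stood far above the other genes at 1810 ± 103 TPM (SD, n = 3). Next came axin2 at 204 ± 58.4 TPM and tcf7l1 at 182 ± 30.9 TPM, whose ranges over the 3 libraries overlapped. They were followed by notum (38.2 ± 1.10 TPM), tcf7 (25.6 ± 9.07 TPM) and lef1 (10.5 ± 7.10 TPM), of which notum was above tcf7 in every library and tcf7 above lef1 in 3 of 3 libraries by unequal margins, with overlapping ranges. The genes nkd1 (4.20 ± 2.43 TPM), znrf3 (3.86 ± 0.870 TPM) and rnf43 (2.27 ± 0.427 TPM) were low and overlapped in range in part, and tcf7l2 was lowest at 0.0733 ± 0.0153 TPM. Of the Tcf and Lef factors the repressor-type tcf7l1 was thus the most abundant per transcript length in border explants, and tcf7l2 was close to absent.

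**Figure D1:**
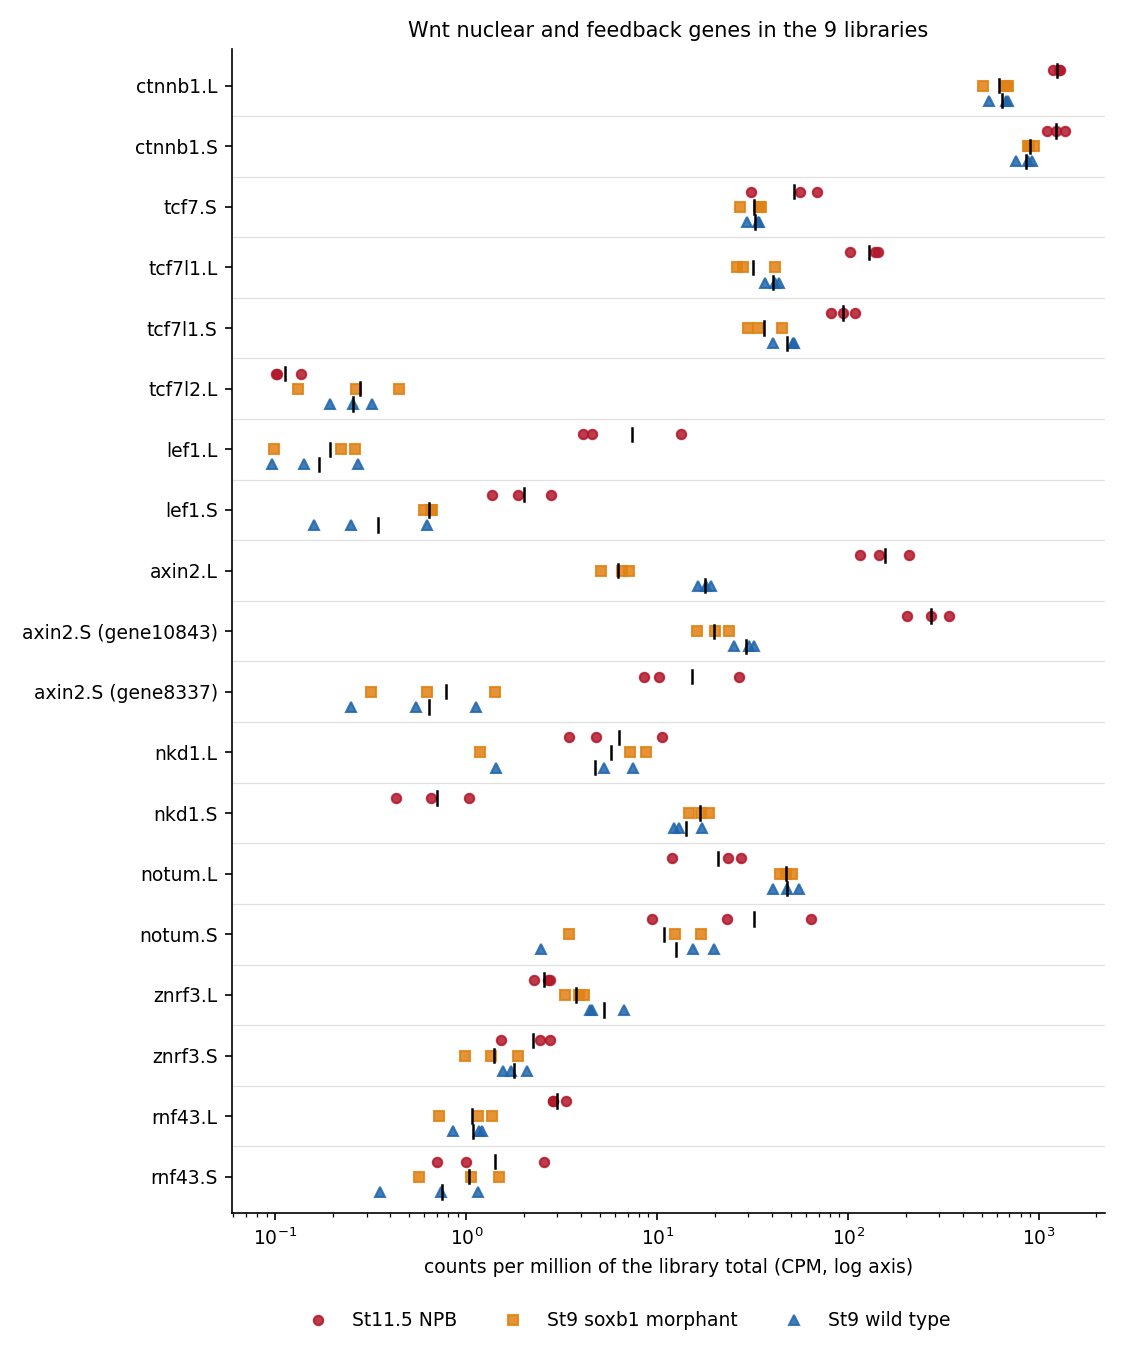
Level of each of the 19 entries in the 9 libraries, in CPM of the library total on a log axis; points are libraries (NPB above morphant above wild type) and the short black bar is the mean of 3. The axin2 entries and lef1 lie to the right in NPB libraries, nkd1.S lies to the left there (0.705 CPM on average, against 14.1 CPM in wild type), and tcf7l2.L is below 0.5 CPM in every library.

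The comparison of NPB with wild-type blastula explants asks how this gene set differs between the induced border state and the pluripotent state it is made from. Of the 19 entries 18 had enough counts to be tested, and 11 were higher and 1 was lower in NPB explants by the quasi-likelihood test of edgeR (Benjamini-Hochberg adjusted p of 0.05 or less, the adjustment running over every gene tested). The background was large: 53.7% of the 21981 genes tested were called, 26.9% as higher and 26.7% as lower. The median log2 fold change of the 18 entries was 1.67, beside -0.04 over all genes tested. With each library left out in turn, NPB replicate 3 included, the counts were again 11 higher and 1 lower. A filter of at least 10 counts in every library leaves out both lef1 entries and axin2.S (gene8337), all called higher above. Of the 15 entries then tested 10 were higher and 1 lower, so some of these calls were of entries not called in the first fit. Of all 17977 genes tested that way 4919 were higher and 5167 lower. Fold changes were set after scaling by TMM, which assumes that most genes do not change. Scaled by library totals alone, the median of all genes moved to -0.72 and that of the 18 entries to 0.97, so levels in CPM show a smaller rise than the fold changes do.

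The transducer ctnnb1, the gene of β-catenin, was abundant in all groups and higher in NPB explants. ctnnb1.L had 1293, 1265 and 1179 CPM in NPB libraries, against 546, 674 and 690 CPM in wild-type libraries. ctnnb1.S had 1102, 1224 and 1370 CPM in NPB libraries, against 871, 757 and 922 CPM in wild-type libraries. For neither entry did the groups overlap. The log2 fold change was 1.67 (SE 0.16, adjusted p = 0.000114) for ctnnb1.L and 1.22 (SE 0.13, adjusted p = 0.000222) for ctnnb1.S in the edgeR fit, and 0.97 and 0.54 with library totals alone, both still called.

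Of the nuclear partners, lef1, which acts mostly as an activator, had the largest fold change. lef1.L had 4.09, 4.54 and 13.4 CPM in NPB libraries, against 0.271, 0.142 and 0.0959 CPM in wild-type libraries, where it was read from 7, 4 and 3 counts. NPB replicate 3 was highest, and all NPB libraries were above all wild-type libraries. The edgeR log2 fold change was 6.08 (SE 0.67, adjusted p = 0.000233), and its size rests on few wild-type counts. lef1.L passed the count filter only through its NPB counts, so it could hardly have been called lower. lef1.S had 1.87, 1.37 and 2.76 CPM in NPB libraries, against 0.620, 0.248 and 0.160 CPM in wild-type libraries, also without overlap (log2 fold change 3.23, SE 0.64, adjusted p = 0.0034 in edgeR). It was read from 16, 7 and 5 counts in wild-type libraries. lef1.S too passed the count filter of this comparison only through its NPB counts, so the same limit holds for its call. NPB replicate 3, in which lef1.L was highest, was also the library with the mesoderm transcripts above; their part in the lef1 level was not tested, and lef1.L stood at 4.09 CPM or more in the NPB libraries whose mesoderm entries summed to 1.76 and 4.24 CPM.

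tcf7l1, known as a repressor of Wnt targets in the absence of β-catenin, also rose. tcf7l1.L had 144, 139 and 102 CPM in NPB libraries, against 36.7, 43.3 and 41.4 CPM in wild-type libraries (log2 fold change 2.37, SE 0.22, adjusted p = 0.000111 in edgeR). tcf7l1.S had 93.6, 109 and 81.1 CPM in NPB libraries, against 40.4, 52.0 and 51.5 CPM in wild-type libraries (log2 fold change 1.68, SE 0.20, adjusted p = 0.000335). Both were separated from wild type, and NPB replicate 3, highest for lef1.L, was lowest for both. tcf7.S, of a gene with activating and repressing isoforms, was less clear, with 68.6, 31.1 and 55.9 CPM in NPB libraries, against 34.0, 33.8 and 29.7 CPM in wild-type libraries. NPB replicate 2 fell within the wild-type range by library totals and above it after TMM scaling. Its log2 fold change was 1.39 (SE 0.32, adjusted p = 0.00653 in edgeR), and with library totals alone 0.68, no longer called (adjusted p = 0.0755). tcf7l2.L, the remaining Tcf factor, had 5, 3 and 5 counts in NPB libraries, against 5, 9 and 8 counts in wild-type libraries, and was too low to test.

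The feedback inhibitor axin2, a scaffold of the destruction complex and a widely used readout of the pathway, rose in all its entries. axin2.L had 145, 115 and 209 CPM in NPB libraries, against 16.4, 19.2 and 18.0 CPM in wild-type libraries. The entry axin2.S (gene10843) had 271, 203 and 339 CPM in NPB libraries, against 25.2, 32.1 and 30.4 CPM in wild-type libraries. In both entries NPB replicate 2 was lowest and replicate 3 highest, and the groups were far apart. Their log2 fold changes were close, at 3.82 (SE 0.25, adjusted p = 3.3e-05) for axin2.L and 3.91 (SE 0.23, adjusted p = 2.9e-05) for axin2.S (gene10843) in edgeR, which is 14.1-fold and 15-fold. The entry axin2.S (gene8337) had 10.2, 8.54 and 26.9 CPM in NPB libraries, against 1.12, 0.248 and 0.543 CPM in wild-type libraries (log2 fold change 5.24, SE 0.68, adjusted p = 0.00049). It was read from 29, 7 and 17 counts in wild-type libraries and passed the count filter of this comparison only through its NPB counts.

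nkd1, of Naked cuticle, which binds Dishevelled and dampens the signal, had the only entry called lower with TMM scaling, nkd1.S. nkd1.S had 0.651, 1.03 and 0.430 CPM in NPB libraries, against 12.3, 13.0 and 17.1 CPM in wild-type libraries. All NPB libraries were below all wild-type libraries, and the level was 12.5-fold lower (log2 fold change -3.64, SE 0.42, adjusted p = 0.00028 in edgeR). nkd1.L had 10.6, 3.47 and 4.75 CPM in NPB libraries, against 5.23, 7.45 and 1.44 CPM in wild-type libraries, which overlapped (log2 fold change 1.16, SE 0.66, adjusted p = 0.173). With the copies summed, nkd1 was not called (log2 fold change -0.71, SE 0.413, adjusted p = 0.184), nor were notum (0.53, adjusted p = 0.185) and znrf3 (0.11, adjusted p = 0.793).

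The secreted feedback inhibitor notum, an enzyme that removes the lipid of Wnt ligands, was not called for either copy. notum.L had 12.0, 27.3 and 23.5 CPM in NPB libraries, against 40.3, 48.0 and 55.1 CPM in wild-type libraries, which are separated by library totals and overlap after TMM scaling (log2 fold change -0.52, SE 0.29, adjusted p = 0.156 in edgeR). With library totals alone notum.L was called lower (log2 fold change -1.19, adjusted p = 0.0122). notum.S varied most of all entries among the NPB libraries, with 64.2, 9.34 and 23.1 CPM, against 19.8, 15.5 and 2.46 CPM in wild-type libraries (log2 fold change 2.12, SE 0.91, adjusted p = 0.0836). Its highest NPB value was 7.75 times its lowest after TMM scaling, a ratio above that of 96.7% of the genes tested.

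The membrane ubiquitin ligases rnf43 and znrf3, which remove Frizzled receptors from the cell surface, were low in all libraries. rnf43.L was called higher, with 2.85, 2.84 and 3.32 CPM in NPB libraries, against 0.853, 1.17 and 1.21 CPM in wild-type libraries (log2 fold change 2.16, SE 0.39, adjusted p = 0.00214 in edgeR). rnf43.S had 0.705, 1.0 and 2.54 CPM in NPB libraries, against 0.737, 0.355 and 1.15 CPM in wild-type libraries, and was not called (log2 fold change 1.57, adjusted p = 0.0737). The groups overlapped for rnf43.S by library totals and did not after TMM scaling. With its copies summed, rnf43 was called higher (log2 fold change 1.93, SE 0.397, adjusted p = 0.00399 in edgeR). In that fit 4393 of 16403 genes were called higher. znrf3.L had 2.25, 2.67 and 2.74 CPM in NPB libraries, against 4.57, 4.47 and 6.71 CPM in wild-type libraries (log2 fold change -0.35, SE 0.34, adjusted p = 0.411), and was called lower with library totals alone (log2 fold change -1.04, adjusted p = 0.032). znrf3.S had 1.52, 2.44 and 2.74 CPM in NPB libraries, against 1.71, 1.56 and 2.08 CPM in wild-type libraries (log2 fold change 1.0, SE 0.40, adjusted p = 0.0674), and was called higher by DESeq2 (adjusted p = 0.0347), which called 56.4% of all genes, 29.3% as higher and 27.1% as lower. After TMM scaling 13 of the 18 tested entries had all NPB libraries above all wild-type libraries and 2 had them below, where 31.5% and 32.5% of all genes tested did so (64% in either direction).

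**Figure D2:**
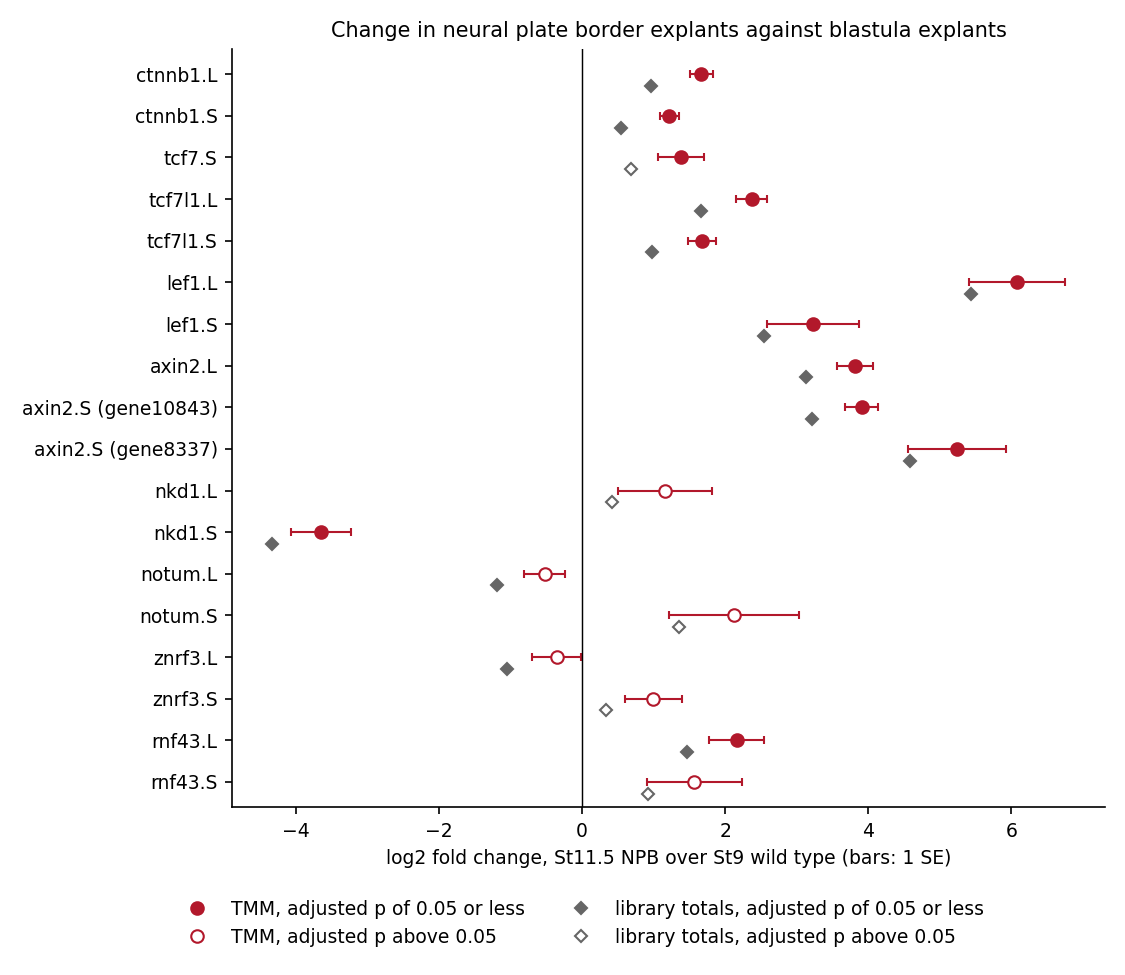
log2 fold change of the 18 tested entries in NPB over wild-type explants with TMM scaling (circles, bars are 1 SE) and with library totals alone (diamonds); filled symbols have an adjusted p of 0.05 or less. The axin2 and lef1 entries lie between 3.23 and 6.08, nkd1.S lies at -3.64, and the diamonds lie to the left of the circles, so that tcf7.S loses its call while notum.L and znrf3.L gain one.

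The comparison of soxb1 morphant with wild-type explants, at the same stage, asks which of these genes depend on Sox2 and Sox3 in blastula cells. It shares its wild-type libraries with the comparison above, so the values of the pair of comparisons are set side by side here and not tested against each other. Of the 19 entries 17 were tested, since lef1.L joined tcf7l2.L below the count filter. Without regard to replicate numbers edgeR called none of the 17 and none of the 21659 genes tested (0%). Before adjustment, p lay under 0.05 for 1238 genes and for 2 of the entries, axin2.L and axin2.S (gene10843). DESeq2 called axin2.L as lower and 2.02% of all genes, 0.826% as higher and 1.19% as lower. Stage 9 libraries of the same replicate number deviated together from their group means. With replicate number as a blocking factor, 4 entries were lower (axin2.L, axin2.S (gene10843), tcf7l1.L and tcf7l1.S) and 0 were higher, where 6.71% of the genes tested were called lower and 5.75% higher (12.5% in all). The median log2 fold change of the 17 entries was -0.02 in this fit, beside 0.01 over all genes.

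axin2.L showed the clearest difference, with 5.09, 6.5 and 7.10 CPM in morphant libraries, against 16.4, 19.2 and 18.0 CPM in wild-type libraries. The groups were well apart, and within pairs of the same number the log2 ratio was -1.67, -1.58 and -1.34. Without the block the log2 fold change was -1.52 (SE 0.20, adjusted p = 0.0978 in edgeR), and with it -1.53 (SE 0.12, adjusted p = 6.74e-07), which is 2.88-fold. With each pair left out in turn the blocked adjusted p was at most 0.000369. The entry axin2.S (gene10843) had 16.1, 23.7 and 20 CPM in morphant libraries, against 25.2, 32.1 and 30.4 CPM in wild-type libraries. It too was lower in 3 of 3 pairs, by a smaller amount (log2 fold change -0.56, SE 0.09, adjusted p = 0.000679 with the block). The entry axin2.S (gene8337), at 1.41, 0.316 and 0.625 CPM in morphant libraries against 1.12, 0.248 and 0.543 CPM in wild-type libraries, was not called (log2 fold change 0.29, adjusted p = 0.69 with the block).

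Both copies of tcf7l1 were slightly lower in morphants. tcf7l1.S had 30.0, 45.3 and 33.7 CPM in morphant libraries, against 40.4, 52.0 and 51.5 CPM in wild-type libraries, and its log2 fold change was -0.41 (SE 0.09, edgeR adjusted p = 0.00578 with the block). tcf7l1.L had 26.0, 41.3 and 28.2 CPM in morphant libraries, against 36.7, 43.3 and 41.4 CPM in wild-type libraries, and its log2 fold change was -0.37 (SE 0.10, adjusted p = 0.0209 with the block). The groups overlapped for both, since replicate 2 was high in morphants, and each was lower in 3 of 3 pairs. Without the pair of replicate 1 the call of tcf7l1.L was lost (adjusted p = 0.184), and without that of replicate 3 as well (adjusted p = 0.102). The 4 entries called lower in morphants had log2 fold changes of 1.68 to 3.91 in NPB explants, set against the same wild-type libraries.

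The other members did not pass the test. znrf3.L, at 3.28, 3.88 and 4.14 CPM in morphant libraries against 4.57, 4.47 and 6.71 CPM in wild-type libraries, was lower in every morphant library than in any wild-type library and missed the threshold (log2 fold change -0.47, SE 0.16, adjusted p = 0.0749 with the block). Groups lay apart in this direction for 3 of the 17 entries and for 5.36% of all genes tested, and in the other direction for 0 entries and 4.82% of genes (10.2% in all). ctnnb1.L, at 507, 686 and 668 CPM in morphant libraries against 546, 674 and 690 CPM in wild-type libraries, had a log2 fold change of -0.05 (SE 0.06), and ctnnb1.S, at 885, 874 and 945 CPM against 871, 757 and 922 CPM in wild type, one of 0.09 (SE 0.06). The remaining entries lay between -0.37 (znrf3.S) and 0.98 (lef1.S, SE 0.45) on the log2 scale with the block. lef1.L was read from 8, 7 and 3 counts in morphant libraries, against 7, 4 and 3 counts in wild-type libraries. For lef1.L no difference was detectable at this depth.

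Transcripts of other cell types moved in the same comparison. The 8 entries of the endoderm list summed to between 40.8 and 63.2 CPM in morphant libraries, against 15.9 to 25.6 CPM in wild-type libraries, and its 4 tested entries were all called higher with the block. The mesoderm list summed to between 207 and 292 CPM in morphant libraries, against 113 to 218 CPM in wild-type libraries, with all 5 tested entries called higher. In that blocked fit 5.75% of all genes tested were called higher. These sums are mostly vegt, with vegt.L at 97.2 to 133 CPM and vegt.S at 103 to 153 CPM in morphant libraries, against 64.7 to 107 CPM and 46.2 to 110 CPM in wild-type libraries, while msgn1.S and myf5.S were at 0 in both groups. The border list summed to between 113 and 155 CPM in morphant libraries, against 323 to 379 CPM in wild-type libraries. The neural list, mostly sox3, summed to between 1054 and 1458 CPM in morphant libraries, against 582.5 to 961.1 CPM in wild-type libraries. With the block 4 of its 7 tested entries were higher and 2 lower, where 5.75% and 6.71% of all genes were. Of the epidermis list 2 of 7 were higher and 0 lower in that fit. The part of these cells or transcripts in the axin2 and tcf7l1 levels was not tested.

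**Figure D3:**
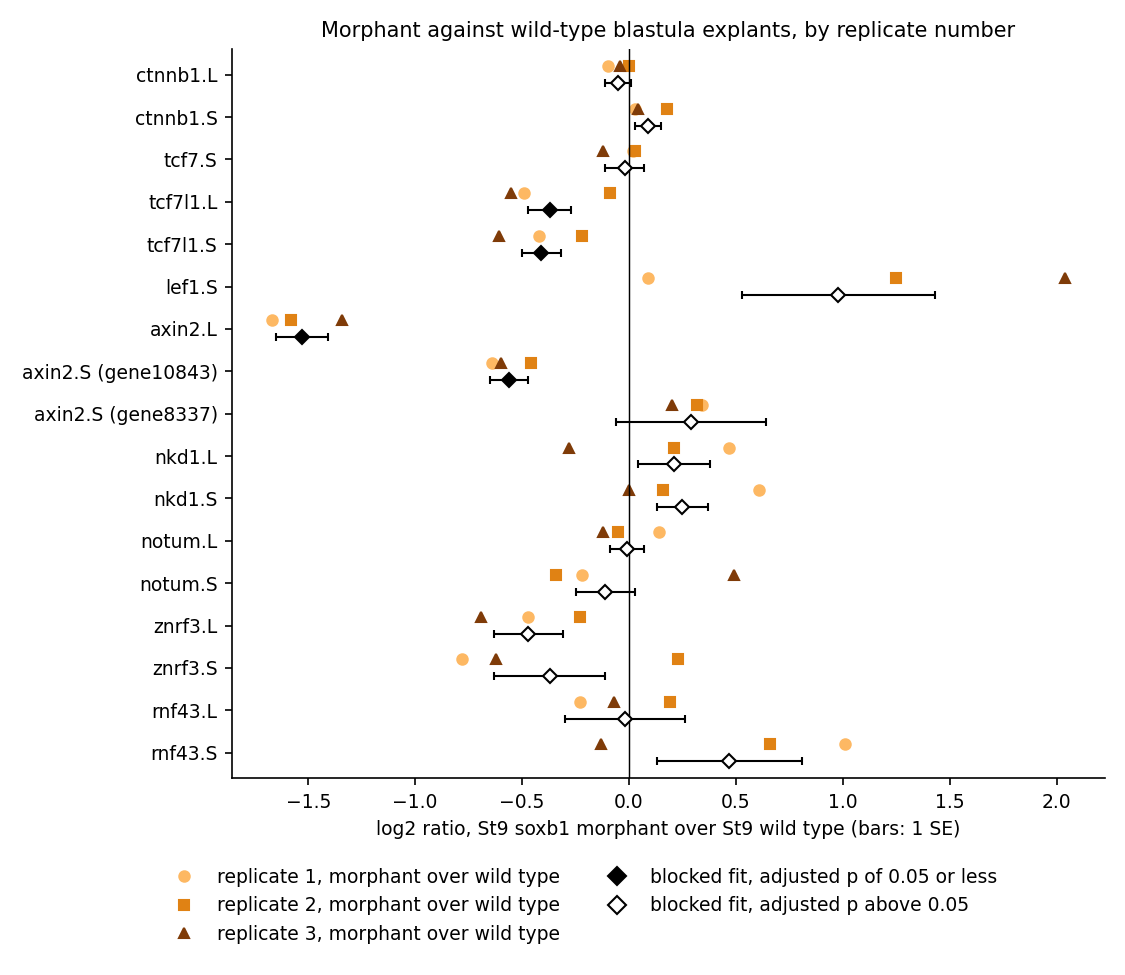
log2 ratio of morphant over wild-type libraries of the same replicate number for the 17 tested entries (coloured points, TMM-scaled CPM) and the edgeR estimate with replicate number as a blocking factor (diamonds, bars are 1 SE, filled at an adjusted p of 0.05 or less). The pairs of axin2.L lie between -1.67 and -1.34, apart from all other entries, while those of lef1.S, rnf43.S and notum.S spread to both sides of 0 or over a wide range.

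The L and S copies of a gene share a library, so their ratio does not depend on scaling between libraries, and it was tested with limma on log2 of L over S counts. In NPB against wild-type explants the ratio differed for 4 of the 7 members with exactly 1 L and 1 S entry (nkd1, lef1, tcf7l1 and znrf3), where 37.4% of the 5336 such genes were called (32.2% with the block). With the block 3 of the 7 were called, and znrf3 was not (adjusted p = 0.0934 in limma). For nkd1 the log2 of L over S was 4.0, 1.73 and 3.43 in NPB libraries, against -1.23, -0.80 and -3.56 in wild-type libraries. Wild-type explants thus held more S and NPB explants more L transcript, a change of 4.92 (SE 0.87, adjusted p = 0.00502 in limma). lef1 also changed sides, with 1.12, 1.72 and 2.27 in NPB libraries, against -1.14, -0.74 and -0.65 in wild-type libraries (change 2.55, SE 0.57, adjusted p = 0.0122). This call was lost without NPB replicate 2 (adjusted p = 0.0501) or replicate 3 (adjusted p = 0.0618). With at least 10 counts required in every library the lef1 ratio was no longer tested. The lef1 pair entered the ratio test only through its NPB counts. Its wild-type ratios rest on 7, 4 and 3 L counts and 16, 7 and 5 S counts.

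tcf7l1 shifted by less, with 0.62, 0.35 and 0.33 in NPB libraries, against -0.14, -0.26 and -0.31 in wild-type libraries (change 0.67, SE 0.16, adjusted p = 0.0172), and this call held with each library left out in turn. The shift rests on counts: in NPB libraries the L share of tcf7l1 was 57.5 ± 2.73% by counts and 46.0 ± 3.11% by TPM (SD, n = 3). Wild-type libraries, with counts alone here, had 45.9 ± 1.57%. znrf3 moved towards S, with 0.56, 0.13 and 0.00 in NPB libraries, against 1.41, 1.51 and 1.68 in wild-type libraries (change -1.30, SE 0.39, adjusted p = 0.0349). The call of znrf3 was lost without NPB replicate 2 (adjusted p = 0.0988) or 3 (0.101) and without wild-type replicate 1 (0.0677), 2 (0.0753) or 3 (0.0844). It also rests on counts: in the same NPB libraries the L share of znrf3 was 54.0 ± 5.08% by counts and 70.4 ± 2.66% by TPM (SD, n = 3), and wild-type libraries, which have counts alone here, had 74.4 ± 1.78%. The ratio was not called for ctnnb1 (change 0.44, adjusted p = 0.0759), notum (-2.66, SE 1.19, adjusted p = 0.117) or rnf43 (0.64, adjusted p = 0.5). axin2, added with its entry gene10843 after the values were seen, had a ratio of -0.90, -0.82 and -0.70 in NPB libraries, against -0.62, -0.74 and -0.75 in wild-type libraries (change -0.10, SE 0.15, adjusted p = 0.644).

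In morphants limma called the ratio of none of 6 members, with the block or without it, where 9.35% of 5282 genes were called with the block and 0% without. Before adjustment, p lay under 0.05 for 1 of the 6 with the block (ctnnb1, change -0.13) and 0 without, and for 1355 and 284 of all genes. For axin2, added after the values were seen, the log2 of L over S was -1.66, -1.86 and -1.49 in morphant libraries, against -0.62, -0.74 and -0.75 in wild-type libraries. The change of -0.96 was not called without the block (SE 0.19, adjusted p = 0.353 in limma) and was called with it (SE 0.13, adjusted p = 0.00936), so that the L copy fell by more than the S copy. The stage 9 ratios of nkd1 and notum varied with the replicate number in both groups. nkd1.L had 1.18 CPM in morphant replicate 3, against a mean of 7.97 CPM in morphant replicates 1 and 2, and 1.44 CPM in wild-type replicate 3, against 6.34 CPM in the other wild-type libraries. notum.S had 3.45 CPM in morphant replicate 3, against 14.6 CPM in the other morphant libraries, and 2.46 CPM in wild-type replicate 3, against 17.6 CPM in the other wild-type libraries. What the replicate number marks is not stated in the labels.

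**Figure D4:**
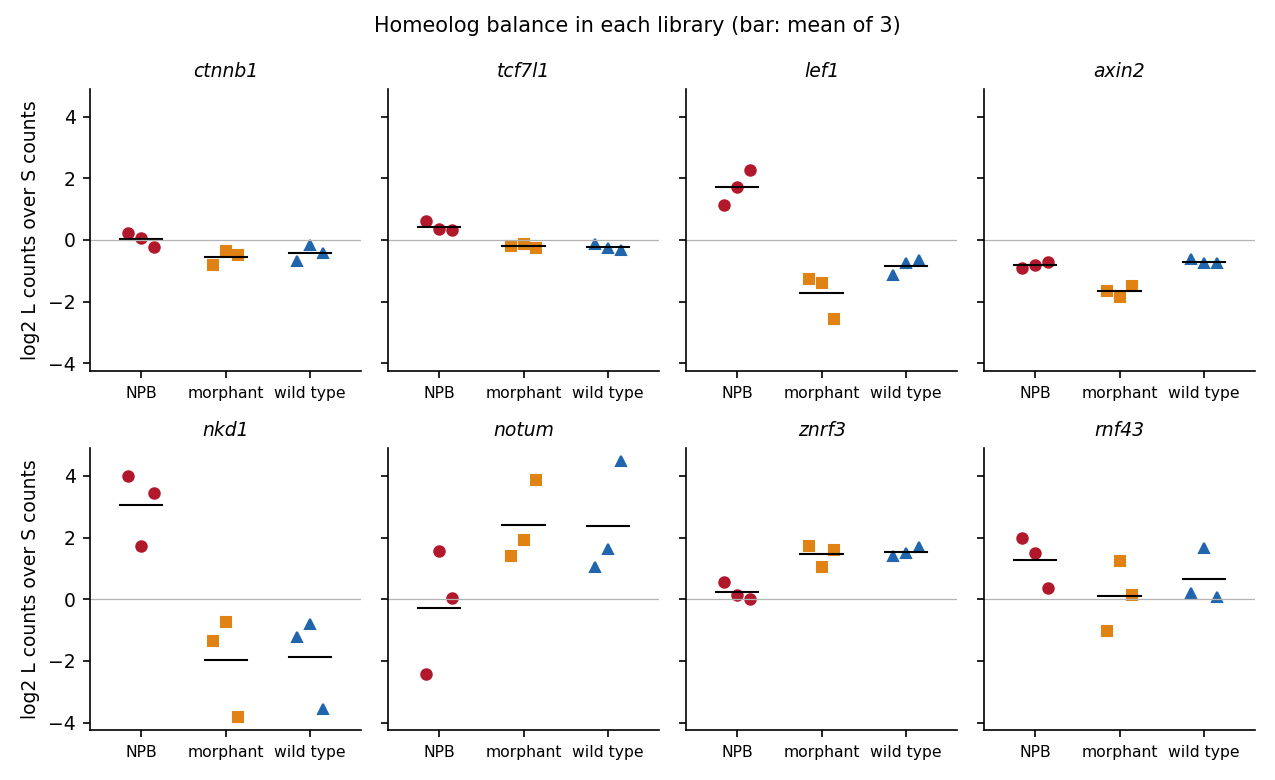
log2 of L counts over S counts in each library for the 8 symbols with both copies (axin2 with gene10843); points are libraries and bars the mean of 3, with NPB, morphant and wild type from left to right. nkd1 and lef1 lie above 0 in NPB libraries and below 0 in stage 9 libraries, and axin2 lies lower in morphant libraries (-1.86 to -1.49) than in the other groups.

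The Wnt8a mRNA was read in the NPB libraries beside the members, as a description without a test over 3 libraries. wnt8a.L had 291, 546 and 293 CPM in NPB libraries and 0.131, 0.379 and 0.789 CPM in morphant libraries, against 1.2, 0.319 and 0.351 CPM in wild-type libraries. The counts do not tell injected from endogenous wnt8a transcripts. The entry chrd.1.S, of Chordin, had 2458, 13318 and 2957 CPM in NPB libraries, so that both injected transcripts were highest in replicate 2, while chrd.1.L had 2.98, 4.07 and 5.73 CPM. By TPM 2 of the 18 tested entries (znrf3.L and notum.L) had the order of wnt8a.L over the 3 libraries, beside 22.6% of the genes tested, and 7 were lowest in replicate 2, beside 24.2%. By TMM-scaled CPM the entries with that order were tcf7l1.S and nkd1.S, beside 10.3% of genes, and 10 were lowest in replicate 2, beside 27.4%. The order itself rests on a near tie, since wnt8a.L had 322 and 328 TPM in replicates 1 and 3, against 618 TPM in replicate 2. With L and S entries summed, wnt8a had 393, 741 and 394 TPM in NPB replicates 1, 2 and 3, while axin2 had 195, 150 and 266 TPM and lef1 6.45, 6.44 and 18.7 TPM.

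The copies of notum were the most uneven over these libraries, while their sum was the most even by TPM. The summed level was 37.1, 39.3 and 38.2 TPM in NPB replicates 1, 2 and 3, and the share of the L copy in it 42.5%, 90.9% and 79.4%. Both the share and the even sum depend on the quantification. By counts, which are not corrected for length, the share was 15.7%, 74.5% and 50.5%. In CPM of library totals notum.L had 12.0, 27.3 and 23.5 CPM and notum.S 64.2, 9.34 and 23.1 CPM, so in that unit the sum was not even. A gap between the units also stood for znrf3 and tcf7l1, as given above, and for rnf43, with an L share of 43.1 ± 3.42% by TPM and 70.2 ± 12.2% by counts (SD, n = 3). For wnt8a.S the counts were 5, 192 and 152 in NPB libraries while its TPM were 71.3, 123 and 66.2, so L and S levels of near-identical copies are uncertain in either unit.

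**Figure D5:**
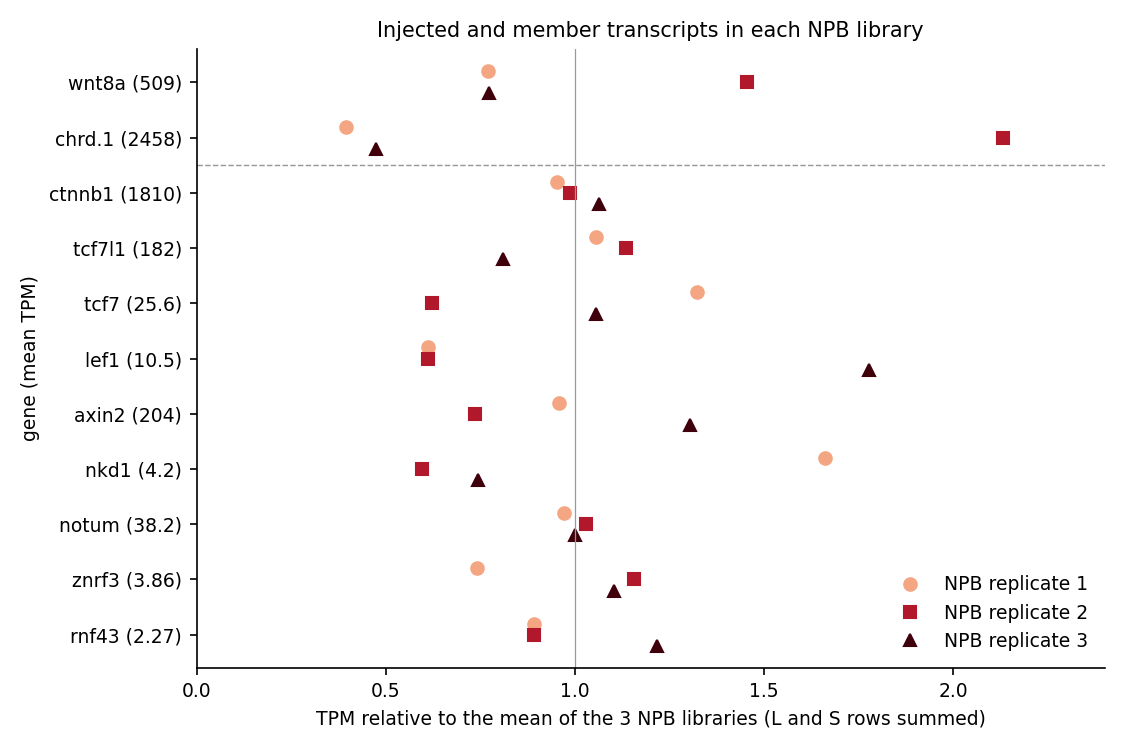
TPM of the injected transcripts (above the dashed line) and of 9 members in each NPB library, relative to the mean of the 3 libraries, with L and S entries summed and the mean TPM beside each name. Replicate 2 is highest for wnt8a and chrd.1 and below the mean for axin2, lef1, tcf7 and nkd1, and the 3 points of notum lie closest together with those of ctnnb1.

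Other genes of the pathway were read from a list of 96 entries, which holds tbxt and msgn1 as does the mesoderm list. In NPB against wild-type explants 78 were tested, of which 31 were higher and 20 lower by edgeR (26.9% and 26.7% of all genes). Of the 25 tested entries of transcriptional targets 18 were higher and 3 lower, of the 28 nuclear cofactors 6 and 10, of the 20 receptors and transducers 4 and 6, and of the 5 Lgr and Rspo entries 3 and 1. In the stage 9 comparison 14 target entries passed the count filter. Targets, and Lgr and Rspo entries, that passed only through their NPB counts could hardly be called lower. With at least 10 counts in every library 58 pathway entries were tested, 20 higher and 18 lower, beside 4919 and 5167 of 17977 genes. The entries with the largest fold changes were near 0 in wild-type libraries, so no fold is given. sp5.L, of a zinc finger factor that is a direct Wnt target, had 168, 245 and 407 CPM in NPB libraries, against 4, 8 and 17 counts in wild-type libraries. sp5.S had 59.6, 64.5 and 130 CPM in NPB libraries, against 2, 1 and 0 counts in wild-type libraries (adjusted p = 2.05e-05). The homeobox gene gbx2, a posteriorizing Wnt target at the border, was represented by gbx2.1.L (39.8, 64.8 and 105 CPM in NPB libraries, against 18, 1 and 0 counts), gbx2.1.S, gbx2.2.L and gbx2.2.S, all higher. The sp5 and gbx2 entries passed the count filter only through their NPB counts, so they could hardly have been called lower.

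rspo3.L, of a secreted enhancer of Wnt signalling, had 8.54, 1.70 and 2.01 CPM in NPB libraries, against 1, 0 and 0 counts in wild-type libraries (adjusted p = 0.000697). Like cdx4.S, it passed the count filter only through its NPB counts and could hardly have been called lower. cdx4.S, of a posterior homeobox factor, had 1.19, 1.74 and 34.0 CPM in NPB libraries, against 2, 3 and 0 counts in wild-type libraries (adjusted p = 0.00574), and so was high in the NPB library with the most mesoderm transcripts among the NPB libraries. In that library sp5 and gbx2.1 entries were highest too, as were axin2 and lef1. All of these were above wild type in every NPB library. The part of mesoderm transcripts in their levels was not tested.

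In morphants 65 entries of this list were tested, with none called by edgeR without the block (7 had an unadjusted p under 0.05, and DESeq2 called 2 lower) and 4 higher and 11 lower with it, where 5.75% and 6.71% of all genes were called. The target cdx1.S had 7, 7 and 1 counts in morphant libraries, against 162, 214 and 26 counts in wild-type libraries (log2 fold change -4.89, SE 0.30, adjusted p = 7.05e-08 with the block). amer2.L, of a membrane-bound partner of Apc, had 1, 2 and 1 counts in morphant libraries, against 34, 48 and 29 counts in wild-type libraries (adjusted p = 1.5e-05 with the block). Both cdx1.S and amer2.L passed the count filter only through their wild-type counts, so they could hardly have been called higher. dkk1.L, of a secreted Wnt inhibitor, was lower, at 0.755, 1.55 and 1.48 CPM in morphant libraries against 2.83, 3.05 and 4.67 CPM in wild-type libraries (log2 fold change -1.49, SE 0.23, adjusted p = 0.000414). tbxt.S, a mesoderm gene and Wnt target, was higher, at 2.13, 1.67 and 1.54 CPM in morphant libraries against 0.543, 0.674 and 0.447 CPM in wild-type libraries (log2 fold change 1.67, SE 0.29, adjusted p = 0.00129). The others with the largest changes were lower: myc.L (-0.64), btrc.S (-0.64), fzd7.L (-0.59) and crebbp.L (-0.55 on the log2 scale). Without 1 pair the calls of myc.L (adjusted p = 0.165 without replicate 3) and fzd7.L (adjusted p = 0.154 without replicate 2) were lost.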

How the data were processed

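RNA of 9 libraries, 3 in each of 3 groups, was sequenced as single reads of 75 bp from a strand-specific kit. The authors trimmed reads with fastp, aligned them with STAR to X. laevis genome version 9.2 and deposited raw counts per gene made with HTSeq; versions, annotation and the strand setting are not given in the sources used here. The authors also deposited TPM from RSEM for the NPB libraries. A further deposited table holds mean expression, fold changes and p-values of the authors' own DESeq2 comparison and was not used. No genome came with the files: names alone were looked up in RefSeq v10.1, where all 19 entries were found, and no sequence or position is given.

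Counts were fitted with edgeR 4.0.16 in R 4.3.3 (filterByExpr, TMM, robust quasi-likelihood, Benjamini-Hochberg over all genes tested), 1 fit per comparison, and called at an adjusted p of 0.05 or less. DESeq2 1.42.0 and limma 3.58.1 gave alternatives, and limma with a count offset of 0.5 gave the ratios of L to S. Levels in CPM use library totals, fold changes use TMM. The study's methods call the 3 replicates biological; neither they nor the labels say whether these came from separate clutches, and p-values measure the spread between these libraries. The edgeR fits and the L to S ratio fits, with and without the block, were run on simulated counts. The DESeq2 and limma-voom fits were not, and the spread set in the simulation differed from that fitted here.

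Deviations from the group mean correlated at 0.867 to 0.897 between stage 9 libraries of the same replicate number and at -0.493 to -0.377 between other numbers, so the blocked values are printed beside that comparison. NPB and wild-type libraries gave -0.0617 to 0.0579 over all pairs of numbers.

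Every entry of the 10 symbols is named, whether called or not. Of the further pathway genes those named are the 8 called entries with the largest fold change per comparison (from the blocked fit where the other called none), with all wnt8a and chrd entries. Members and lists were chosen with earlier results of these data known.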

Additional observations from a re-analysis of the deposited data

How the results depend on the processing

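Replicate block and pairing. In morphant against wild-type explants the counts depended on the block. With it 4 members were lower, 4 and 11 pathway genes were higher and lower, and 1246 and 1453 of all genes. With the block, DESeq2 gave 4 members lower, 4 and 9 pathway genes, and 868 and 1114 of all genes, library totals alone gave 4 members, 4 and 9 pathway genes, and 1215 and 1376 of all genes, and summed L and S counts (chosen after seeing the data) gave 2 members, 4 and 9 pathway genes, and 902 and 1104 of all genes. With each pair left out of the blocked fit, 3 to 4 members were lower, 1 to 4 and 9 to 11 pathway genes were higher and lower, and 709 to 1183 and 795 to 1428 of all genes (735 and 1058 without replicate 2). With axin2 added to the L to S ratios after seeing the data, the block called 1 ratio. In NPB explants the numbers did not pair the libraries: the block left 11 members higher and 1 lower, with 5328 and 5176 of all genes. Blocked with library totals alone, 2 members were lower, 20 pathway genes higher, and 3251 and 8928 of all genes higher and lower. Blocked with summed copies, 6 members were higher and 0 lower, 12 and 12 pathway genes, and 3943 and 3863 of all genes. Blocked with each number left out, 20 to 29 and 10 to 20 pathway genes were higher and lower, and 3899 to 4613 and 3232 to 4240 of all genes.

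Without the block, DESeq2 called 1 member and 2 pathway genes lower in morphants, and 179 and 258 of all genes higher and lower. A filter of at least 1 count in all gave 6 and 10 of all genes, one of 10 counts in every library 4 and 5, a fit of all 9 libraries 6 and 20 with 1 pathway gene lower, summed copies 1 and 3, and leaving out each library 0 to 0 and 0 to 1. In NPB explants an adjusted p of 0.01 left 3862 genes lower and 1 ratio of L to S. Library totals alone gave 3 members lower, and 3642 and 9731 of all genes higher and lower. The filter of 10 counts left 20 pathway genes higher. Summed copies gave 6 members higher and 0 lower, and 16 and 13 pathway genes. Ratios of L to S called with each library left out ran from 2 to 4.

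The member fold changes that turned sign did so in the morphant comparison, all uncalled. With upper quartile scaling notum.L was 0.00 and rnf43.L 0.01 on the log2 scale, and with limma-voom notum.S was 0.03. With each library left out, log2 fold changes ran from -0.46 to 1.0 for axin2.S (gene8337), -0.16 to 0.75 for nkd1.L, -0.12 to 0.10 for notum.L (-0.09 to 0.04 blocked), -0.70 to 0.30 for notum.S (-0.29 to 0.03 blocked), -0.09 to 0.08 for tcf7.S (-0.06 to 0.02 blocked), -0.20 to 0.19 for rnf43.L (-0.15 to 0.06 blocked), -0.01 to 0.14 for ctnnb1.S and -0.13 to 0.07 for ctnnb1.L. The log2 change of L over S ran from -0.97 to 0.80 for nkd1, -0.72 to 1.06 for notum, -0.20 to 0.13 for znrf3 and -1.10 to 0.03 for rnf43. Of the member fold changes under alternatives in NPB explants, 343 kept direction and call, 10 gained a call and 4 lost one; in morphants 290 kept both, 23 gained a call and 25 turned. The cause of these changes was not tested. Depth limits tcf7l2.L and stage 9 lef1, each read from 20 counts or fewer per library.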

Other observations

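An entry that the choice by symbol leaves out is named LOC108701205 in the count tables, with axin2 as its provisional gene name (gene37581), and was looked at after its values were seen. It had 90.3, 61.1 and 144 CPM in NPB libraries and 0.952, 0.505 and 0.164 CPM in morphant libraries, against 0.194, 0 and 0.0639 CPM in wild-type libraries, which are 5, 0 and 2 counts. NPB replicate 2 was lowest and replicate 3 highest, the order that axin2.L and axin2.S (gene10843) also had. The difference between NPB and wild type was called by edgeR (adjusted p = 3.57e-05). This entry passed the count filter only through its NPB counts, so it could hardly have been called lower. Whether this entry is a part of an axin2 transcript is not stated in the files. The entry with tcf7l2 as its provisional name, LOC108697306, had 0, 0 and 1 counts in NPB libraries, 1, 12 and 0 in morphant libraries and 0, 3 and 2 in wild-type libraries.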
